A study of Mus musculus with 15 samples.

Results

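The Ms4a gene cluster of the mouse lies on chromosome 19 and was read here through 8 of its protein-coding genes, Ms4a7, Ms4a4a, Ms4a4c, Ms4a4b, Ms4a6c, Ms4a6b, Ms4a4d and Ms4a6d in their order along the chromosome. They were chosen by name, as 8 of 21938 protein-coding genes in the GENCODE M21 annotation of build mm10. Earlier results of these data were known when they were chosen. CUT & RUN was performed on bone marrow-derived macrophages (BMDMs), an assay in which an antibody tethers a nuclease to chromatin and the released fragments are sequenced. Region lists of 10 of the 15 samples were compared, with 2 biological replicates, as labelled, for the HA tag of H3.3 and for each of the marks H3K27ac and H3K36me3 in WT and in cKO cells. The other 5 samples were IgG controls and entered only as the background for calling. WT mice carried floxed alleles of both genes for histone H3.3 (H3f3a fl/fl H3f3b fl/fl) and no Cre. The H3.3cKO mice carried the same floxed alleles with LysM cre/cre, in which Cre is made from a gene of the myeloid lineage, including neutrophils and macrophages. Deletion of H3f3b in these mice is described by the study as variable, and in some preparations partial. H3.3-HA cells carried an HA tag on H3f3b and no Cre, so H3.3 made from H3f3a was not tagged. All mice were of C57BL/6 background, 8 to 10 weeks old, and their marrow was cultured for 6 to 8 days with L929 conditioned medium.

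MS4A proteins cross the membrane several times and several of them associate with other receptors at the cell surface. The family holds CD20 of B cells (Ms4a1) and the beta chain of the high-affinity IgE receptor of mast cells (Ms4a2), and several members of the cluster are known from monocytes and macrophages. H3K27ac marks active promoters and enhancers. H3K36me3 is laid down over the bodies of genes as they are transcribed, and the variant H3.3 is placed into chromatin outside DNA replication, often at active genes and regulatory elements.

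Each called region is given by its ends and has no height, so the measure used below is the percent of a gene window, the gene body plus 5 kb upstream, that lay under regions of a library. The H3.3-HA libraries held 5365319 to 6951296 tags, the H3K27ac libraries 16444864 to 29988098 and the H3K36me3 libraries 14027132 to 23782914. For H3K36me3 both cKO libraries, at 23782914 and 23503055 tags, were deeper than both WT libraries, at 15086387 and 14027132. For that mark a difference between genotypes cannot be told apart from one of depth. Replicate 1 of cKO H3K36me3 stood apart, with 19.3% of its tags in regions and 90.7 Mb covered, where the other H3K36me3 libraries had 46.5% to 50.2% and 163 to 170 Mb. The cKO H3K27ac libraries had 11.8% and 17.8% of tags in regions and the WT libraries 24.1% and 21.5%. A different IgG control was used for each genotype, so a difference between genotypes cannot be told apart from a difference between their controls. The targeted genes did not show the deletion in the lists. H3K27ac regions covered 23.9% and 24.1% of the body of H3f3b in WT and 55.4% and 73.6% in cKO, and those of H3f3a 16.4% and 16.5% in WT and 26.9% and 20.8% in cKO. Only part of H3f3a was floxed, which coverage of the whole body could miss. In H3f3b all exons were floxed, so this does not apply to that gene. H3K36me3 regions covered 10.7% and 14.2% of the body of H3f3b in WT and 39.6% and 33.6% in cKO. Those of H3f3a covered 72.3% and 77.8% in WT and 67.9% and 73.0% in cKO. The study reports the deletion in BMDMs by PCR, qRT-PCR, RNA-seq and western blot, which the lists do not hold. WT and cKO below are the libraries as labelled. Of 8 macrophage markers, 7 carried H3K36me3 in both WT libraries and 8 in both cKO libraries. The macrophage markers included Lyz2, the gene that carries Cre in the cKO mice, so the genotypes also differ there by the Cre insertion. Of the 6 B cell, 5 T cell, 6 neutrophil, 4 mast cell and basophil and 4 fibroblast markers, 0 carried it in both libraries of either genotype, and of these lists 1 gene, Ms4a1, carried it in 1 cKO library. Of 4 dendritic cell markers, 0 carried it in both libraries of a genotype, 2 in 1 WT library and 1 in 1 cKO library. For H3K27ac, the mean window coverage of the macrophage markers was 33.7% to 39.7% in the WT libraries and 25.9% to 29.6% in the cKO libraries, and 8 of 8 had a region in both WT and 7 of 8 in both cKO libraries. H3K27ac was also called at some markers of other cells. Regions in both libraries were found at 2 of 6 B cell markers in WT and 1 in cKO, and at 1 of 6 neutrophil markers in each genotype. They were found at 0 of 5 T cell, 0 of 4 mast cell and basophil and 0 of 4 dendritic cell markers in WT and at 1 of each list in cKO, and at 0 of 4 fibroblast markers in both. In either library, 1 neutrophil marker had a region in WT and 3 in cKO, with mean coverage of 1.20% to 2.66% and 1.73% to 7.12%. The part of these differences in the H3K27ac results below was not tested.

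The cluster spans 288.8 kb (chr19:11321039-11609849), from the end of Ms4a7 to 5 kb upstream of Ms4a6d. Its regions are drawn by library in the map of the cluster, where a pair of neighbours stands out. Regions of both marks lay at Ms4a4a in WT and were absent or nearly so in cKO, and regions at Ms4a4c, which starts 32.1 kb downstream of the Ms4a4a start, showed the opposite.

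**Figure D1:**
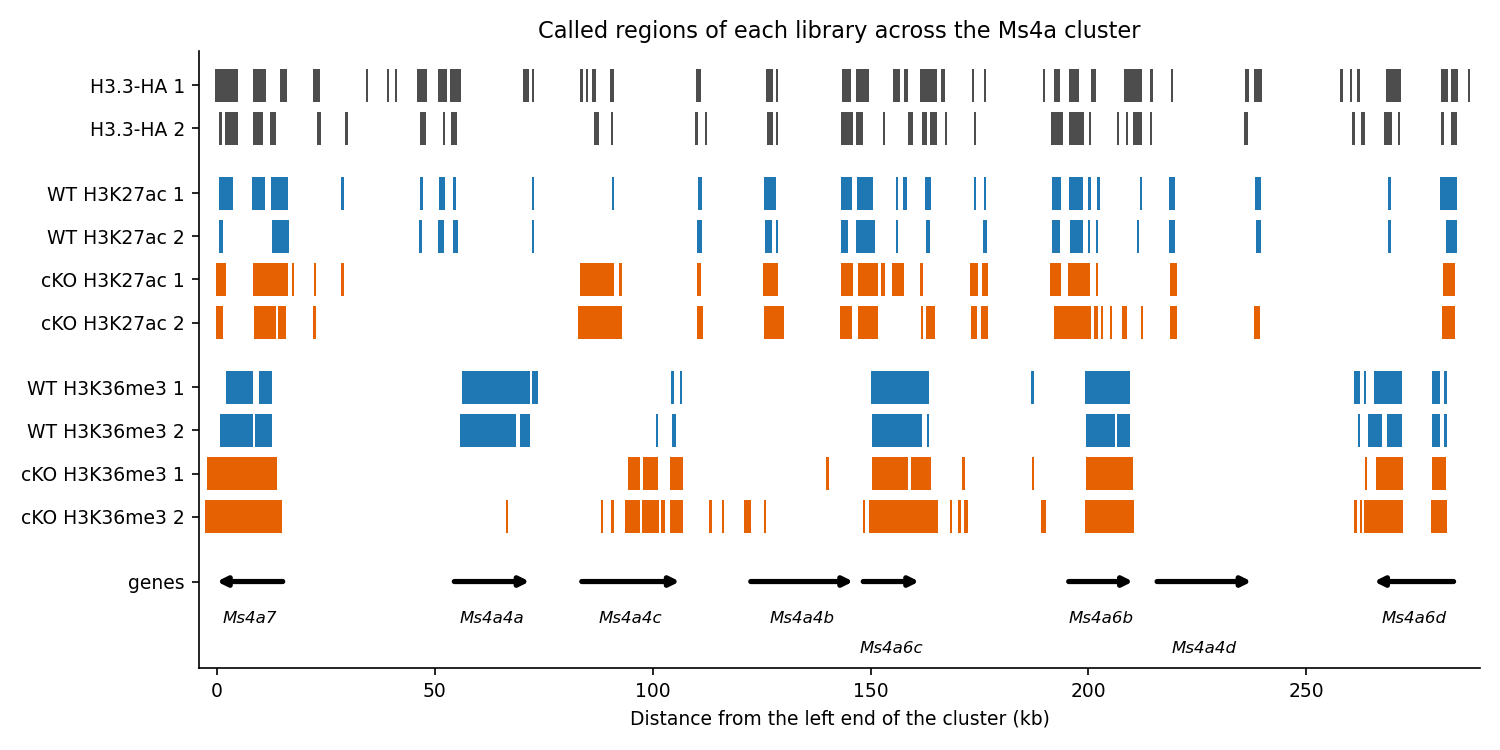
Called regions of the 10 libraries (rows, colored by genotype) across the cluster, by distance in kb from its left end, with each gene as an arrow in its direction of transcription. Long H3K36me3 regions lie over Ms4a4a in both WT libraries and over Ms4a4c in both cKO libraries, and the 7957 and 10055 bp H3K27ac regions at Ms4a4c are found in cKO.

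The sequences given for this pair are the promoters of both genes and the elements upstream of Ms4a4a. These elements are named after Ms4a4a by distance only, and whether they act on that gene was not tested. The promoters are the 250 bases before the RefSeq start (GRCm38.p6), and the elements are 300 bases at the centre of the stretch called for H3K27ac in both WT libraries and in neither cKO library. They were searched on both strands for the letters of the interferon response element core GAAANNGAA, the STAT element TTCNNNGAA, the core GAGGAA bound by the macrophage factor PU.1 and the AP-1 element TGANTCA. Capitals mark the matches, and in each sequence below the matches of different motifs did not overlap.
Ms4a4a promoter, chr19:11375238-11375487, plus strand: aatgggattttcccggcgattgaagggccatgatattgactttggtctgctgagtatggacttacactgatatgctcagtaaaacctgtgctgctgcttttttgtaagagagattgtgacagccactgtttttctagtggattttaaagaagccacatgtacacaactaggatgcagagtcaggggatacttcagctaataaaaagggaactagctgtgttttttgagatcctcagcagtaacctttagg
Ms4a4c promoter, chr19:11407411-11407660, plus strand: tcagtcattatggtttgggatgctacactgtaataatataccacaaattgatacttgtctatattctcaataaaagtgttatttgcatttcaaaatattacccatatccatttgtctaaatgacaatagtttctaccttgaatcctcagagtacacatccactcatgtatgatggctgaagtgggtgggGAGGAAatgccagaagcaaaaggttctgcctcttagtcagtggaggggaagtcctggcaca
Ms4a4a distal element, chr19:11367708-11368007, plus strand: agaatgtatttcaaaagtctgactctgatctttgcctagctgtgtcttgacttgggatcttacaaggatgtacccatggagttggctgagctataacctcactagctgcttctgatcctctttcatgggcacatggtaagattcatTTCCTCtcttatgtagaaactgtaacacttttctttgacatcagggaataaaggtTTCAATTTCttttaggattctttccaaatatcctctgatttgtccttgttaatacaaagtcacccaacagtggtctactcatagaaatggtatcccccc
Ms4a4a proximal element, chr19:11372424-11372723, plus strand: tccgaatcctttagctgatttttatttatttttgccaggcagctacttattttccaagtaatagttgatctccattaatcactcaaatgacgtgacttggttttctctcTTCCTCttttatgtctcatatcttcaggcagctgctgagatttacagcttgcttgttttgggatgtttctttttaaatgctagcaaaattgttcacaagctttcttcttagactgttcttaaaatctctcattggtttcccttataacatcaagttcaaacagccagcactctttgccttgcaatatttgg
The Ms4a4c promoter held 1 PU.1 core, whose first base lay 61 bases before the start, and the Ms4a4a promoter held none of the 4 motifs. Both upstream elements of Ms4a4a held a PU.1 core on the minus strand, TTCCTC as read here, and the distal one also held the interferon response core on the minus strand, TTCAATTTC. These letters are common. The PU.1 core was found in 23.3% of 32851 promoters of 250 bases and in 27.8% of the central 300 bases of 89774 merged H3K27ac regions, and the interferon response core in 7.13% and 11.02%. The STAT element was found in 7.02% and 9.30%, and the AP-1 element in 6.75% and 11.7%. Of the 8 genes, 7 had an entry among the promoters, and Ms4a7 had 2. The interferon response core was found in the promoter of Ms4a6b, that of Ms4a6c and both of Ms4a7, the PU.1 core in that of Ms4a4b as well, and the AP-1 element in 1 of those of Ms4a7. A match is a description of the letters only.

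Ms4a4a (ENSMUSG00000101389.1, chr19:11375523-11392790, plus strand) encodes a surface protein of macrophages, known as a marker of alternatively activated cells. H3K27ac regions covered 10.4% and 11.2% of its window in the WT libraries and 0% in both cKO libraries. H3K36me3 regions covered 69.5% and 66.8% in WT and 0% and 2.25% in cKO. No library of one genotype reached the values of the other for either mark. In a pool of cells, fewer cells that carry a mark and less of the mark per cell cannot be told apart.

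The difference in H3K36me3 window coverage, cKO minus WT, was -67.0 percentage points, from 68.2% ± 1.88 to 1.12% ± 1.59 (SD, n = 2 each). Ranked from the lowest, it was number 2 of the 11975 protein-coding genes with an H3K36me3 region. Over the gene body alone it went from a mean of 87.9% ± 2.42 to 1.45% ± 2.05. In WT the regions ran from intron 1 through the end of the gene, over exons 2 to 7 of 7. In cKO a single region of 501 bp was left, in replicate 2 (chr19:11387361-11387861). Because of it, Ms4a4a was not counted as having a lost H3K36me3 region under the rule used for the whole genome, by which a region merged over the 4 libraries is lost when called in both WT and neither cKO library, and gained in the opposite case. The difference was -68.4 to -65.7 points with any 1 library left out.

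For H3K27ac, 4 lost regions lay around Ms4a4a, with 3 at and before its start and 1 behind its end. The distal element (chr19:11367471-11368246) lay 8052 to 7277 bp before the start and the proximal element (chr19:11371804-11373480) 3719 to 2043 bp before it. The promoter region (chr19:11375135-11376270) ran from 388 bp before the start to 747 bp after it, across exon 1. The fourth (chr19:11393276-11393818) began 486 bp behind the end of the gene. H3.3-HA regions of both replicates overlapped the distal element, the proximal element and the promoter region, and those of replicate 1 the fourth. H3.3-HA covered 26.96% and 8.61% of the window, the widest gap between replicates among the 8 genes.

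Ms4a4c (ENSMUSG00000024675.19, chr19:11404770-11427246, plus strand, principal transcript from 11407661) belongs to the same subfamily and is listed among interferon-stimulated genes of mouse monocytes. H3K27ac regions covered 1.82% and 0% of its window in WT and 30.8% and 36.6% in cKO. H3K36me3 regions covered 1.82% and 5.28% in WT and 30.7% and 41.9% in cKO. Both cKO libraries lay above both WT libraries for both marks.

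The difference was 32.8 points for H3K27ac, from 0.912% ± 1.29 to 33.7% ± 4.11 (SD, n = 2 each), which ranked 62 from the highest of 12767 genes. It was 32.7 points for H3K36me3, from 3.55% ± 2.44 to 36.3% ± 7.94, which ranked 35 of 11975. In cKO its H3K27ac regions were among the widest of that mark in the cluster, 7957 bp in replicate 1 and 10055 bp in replicate 2. The wider one (chr19:11403987-11414041) began 3674 bp before the start and ended 6380 bp after it, in an intron past exon 1. In WT the same stretch held a single region of 501 bp in replicate 1 (chr19:11411702-11412202), and for that reason it was not counted as gained.

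Apart from regions of 501 and 640 bp in cKO replicate 2, the H3K36me3 regions at Ms4a4c lay behind the acetylated stretch. The region gained in cKO (chr19:11414702-11418176) lay 7041 to 10515 bp after the start, over exons 2 to 4 of 7. The next merged region, over exons 5 and 6, was called in both cKO libraries and WT replicate 2, and the last (chr19:11425127-11428112), across the end of the gene, in all 4 libraries. H3.3-HA covered 11.2% and 6.11% of the window, the lowest of the 8 genes by the mean, although its regions overlapped the start in both replicates (chr19:11407133-11408720). Of the stretches of 25 bases in the gene body, the length of the sequencing reads, 24.8% were found elsewhere in the cluster. The share was 1.70% for Ms4a4a. How the authors treated reads that match several places is not given in the sources used here, and its part in the Ms4a4c values was not tested.

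**Figure D2:**
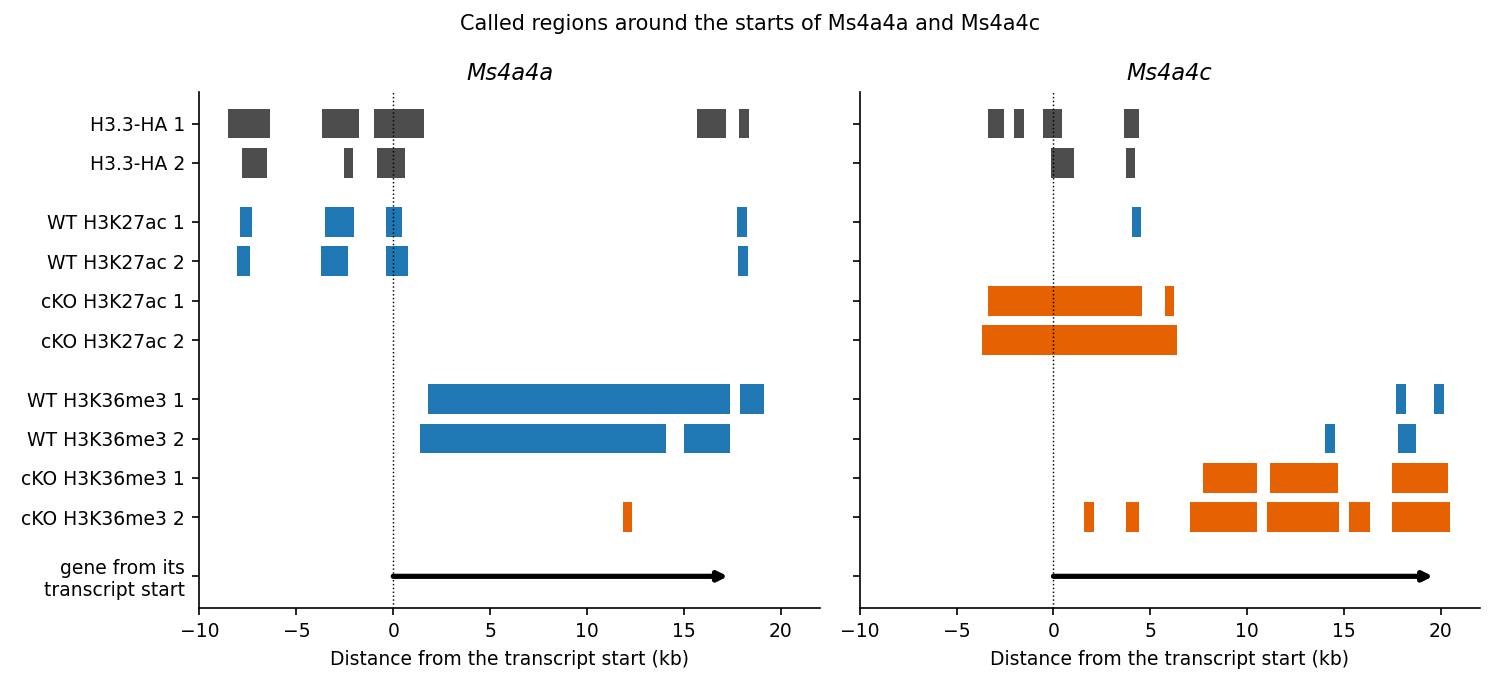
Called regions around Ms4a4a (left) and Ms4a4c (right), by distance in kb from the start of the principal transcript (dotted line), 1 row per library. The WT H3K27ac regions before and at the Ms4a4a start have no counterpart in cKO, and at Ms4a4c the long cKO H3K36me3 regions follow the H3K27ac region that ends 6380 bp after the start.

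Ms4a4b (ENSMUSG00000056290.16, chr19:11443553-11467055, plus strand), whose protein is known from T cells as a partner of the costimulatory receptor GITR, carried H3K27ac and little H3K36me3. H3K27ac regions covered 18.1% and 13.6% of its window in WT and 21.6% and 25.8% in cKO. H3K36me3 regions covered 0% in both WT libraries and 1.76% and 6.92% in cKO, where replicate 1 had 1 region of 501 bp and replicate 2 had 1 of 501 bp and 1 of 1470 bp. The groups did not overlap for either mark, and the differences were 7.86 and 4.34 points. No library called an H3K27ac region at the promoter, taken as 1000 bp before to 100 bp after a start, and the regions lay at chr19:11446411-11451123 inside the gene and chr19:11464029-11466932 at its 3' end. The latter also lies in the window of Ms4a6c, the next gene. Of the 25-base stretches of Ms4a4b, 30.0% were found elsewhere in the cluster, the highest share of the 8 genes.

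Ms4a4d (ENSMUSG00000024678.6, chr19:11536801-11558467, plus strand) carried no H3K36me3 and little H3K27ac. H3K36me3 regions covered 0% of its window in all 4 libraries, which leaves 7 genes for that comparison. H3K27ac regions covered 6.78% and 7.19% in WT and 6.72% and 8.54% in cKO, and the groups overlapped. H3.3-HA covered 14.3% and 11.4%.

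Ms4a6c (ENSMUSG00000079419.4, chr19:11469366-11482192, plus strand) had a called H3K27ac promoter and a long H3K36me3 body in all libraries of each mark. H3K27ac regions covered 41.1% and 34.8% of its window in WT and 60.2% and 40.4% in cKO. H3K36me3 regions covered 62.5% and 60.1% in WT and 57.8% and 68.2% in cKO. The groups overlapped for both marks, as did the body coverage of H3K36me3, with means of 85.2% ± 2.34 and 87.0% ± 9.55 for WT and cKO.

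Ms4a6b (ENSMUSG00000024677.13, chr19:11516512-11531256, plus strand) was higher in cKO for both marks without overlap. H3K27ac regions covered 32.3% and 31.6% of its window in WT and 40.2% and 58.7% in cKO. H3K36me3 regions covered 51.6% and 48.6% in WT and 54.8% and 56.2% in cKO. The widest H3K27ac region of the window measured 3136 and 3079 bp in WT and 4959 and 8659 bp in cKO.

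Ms4a6d (ENSMUSG00000024679.10, chr19:11586604-11604849, minus strand), known from macrophages, was lower in cKO for H3K27ac and higher for H3K36me3. H3K27ac regions covered 19.2% and 13.9% of its window in WT and 11.6% and 12.7% in cKO. The region around its start was called in all 4 libraries, and a region over exon 5 of 7 (chr19:11589829-11590461) was lost in cKO, 633 bp when merged and overlapped by H3.3-HA in both replicates. H3K36me3 regions covered 38.6% and 35.5% in WT and 40.4% and 44.7% in cKO. That difference of 5.52 points turned to -0.11 when regions were joined across gaps of up to 1 kb, so its direction depends on how the calls were stitched.

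Ms4a7 (ENSMUSG00000024672.11, chr19:11321039-11336146, minus strand), a gene of tissue macrophages and microglia, had the fullest H3K36me3 body in cKO. H3K36me3 regions covered 45.7% and 57.7% of its window in WT and 68.6% and 74.1% in cKO, without overlap and with a difference of 19.7 points that ranked 173 of 11975. In WT the gene carried 2 regions in each library, and in cKO a single region of 16151 bp and 17534 bp. H3K27ac regions covered 49.9% and 24.9% in WT and 52.9% and 40.6% in cKO, and the groups overlapped.

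**Figure D3:**
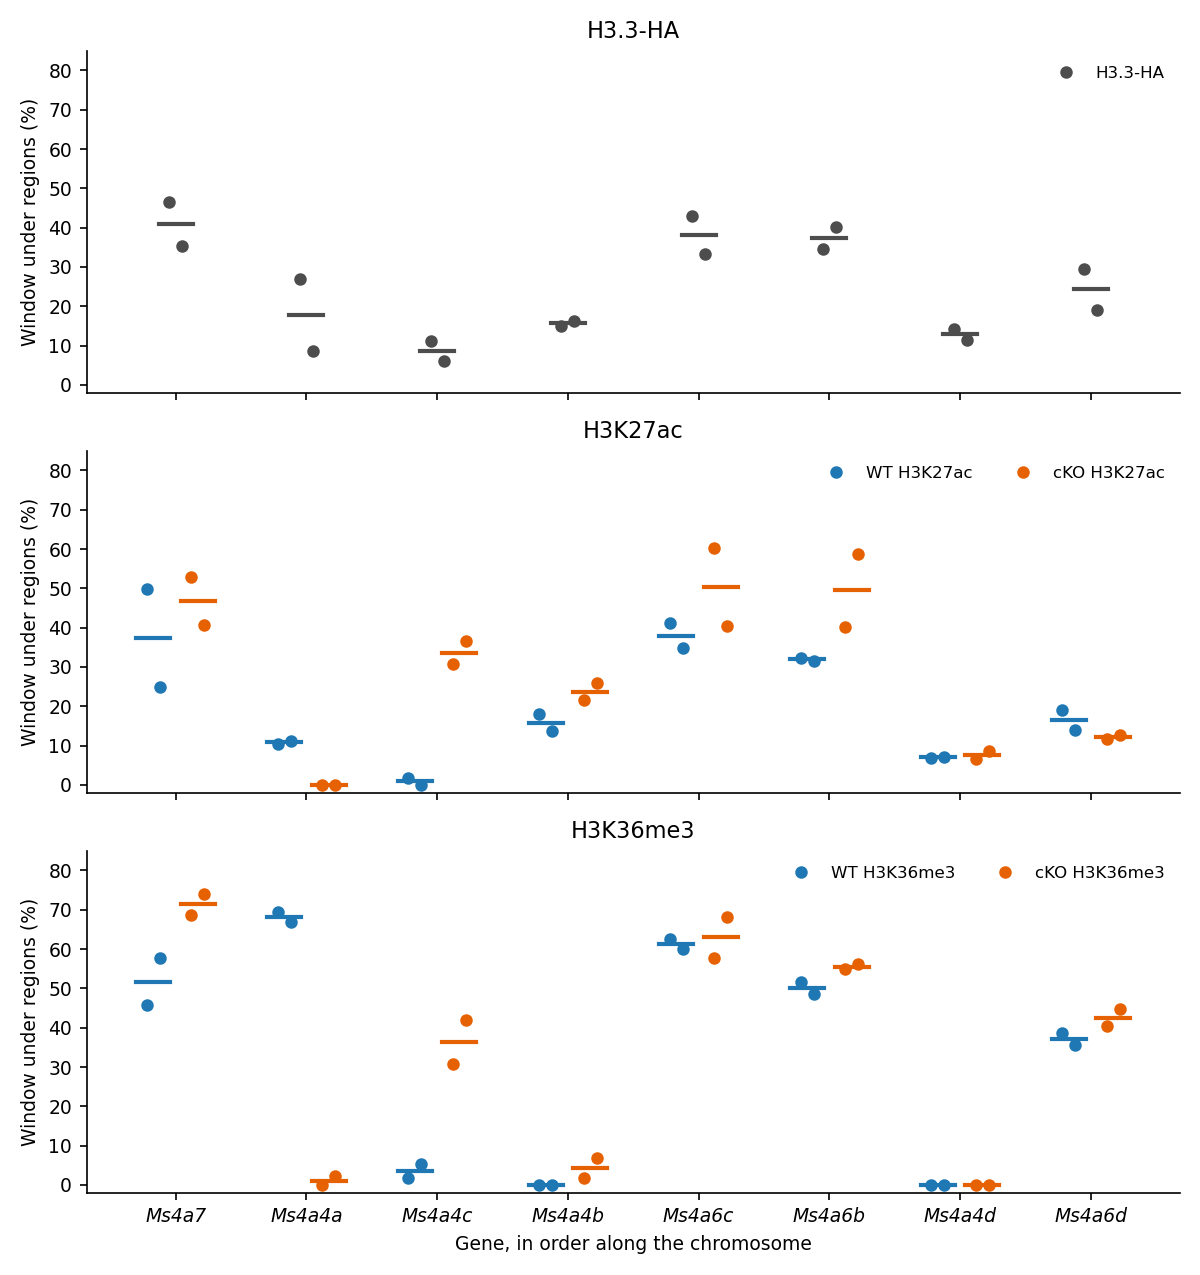
Percent of each gene window (body plus 5 kb upstream) under called regions, in each library (points, 2 per group) with the mean as a bar, for H3.3-HA, H3K27ac and H3K36me3. The WT and cKO points lie far apart for both marks at Ms4a4c and for H3K36me3 at Ms4a4a, and Ms4a4d has no H3K36me3 in any library.

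Counted over the 8 genes, H3K27ac window coverage was higher in both cKO than in both WT libraries for 3 genes (Ms4a4c, Ms4a4b and Ms4a6b), against 17.4% of the 12767 protein-coding genes with a region. It was lower for 2 genes (Ms4a4a and Ms4a6d), against 38.2%. The count of 3 became 5 without WT replicate 1 or without cKO replicate 2, as one WT and one cKO value set the overlap at Ms4a7 and Ms4a6c. A gained H3K27ac region lay in the window of 0 genes, against 17.3%, and a lost one in that of 2 genes (Ms4a4a and Ms4a6d), against 37.3%. The count of gained regions was 1 without WT replicate 1, through the single WT region at Ms4a4c, and 3 without cKO replicate 2. With groups of 2 libraries the smallest two-sided exact permutation p is 0.333, so no gene could reach 0.05.

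For H3K36me3, 5 of 7 genes were higher in both cKO libraries (Ms4a7, Ms4a4c, Ms4a4b, Ms4a6b and Ms4a6d), against 7.85% of 11975 genes. At Ms4a4b this rested on regions of 501 to 1470 bp, with a gene body difference of 2.13 points. The genes were chosen with earlier results of these data known, so the share over all genes stands beside the count as description. Both cKO libraries of this mark were also deeper than both WT libraries, and the part of depth was not tested. Without replicate 1 of cKO, the library that stood apart, the count was 6. With regions of at least 1 kb, or with regions joined across 1 kb, the count was 4. Only Ms4a4a was lower, against 37.7%, and leaving out cKO replicate 2 gave 2. A gained region lay in 1 window (Ms4a4c), against 8.47%, and a lost one in 0, against 23.6%. The gained count was 3 without cKO replicate 1 and 2 without cKO replicate 2, and the lost count was 1 without cKO replicate 2 or without WT replicate 1. Over the genome these lists held 12771 lost and 2995 gained regions for H3K27ac, and 5559 and 1433 for H3K36me3. The study, which compared the marks from reads, reports more gained than lost regions for both. The genome shares given here are therefore shares of calls in these lists, and the reason for the opposite direction was not tested.

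The median of the differences over the 8 genes was 8.60 points for H3K27ac, where the median over all genes with a region was -1.02. It was 3.23 without WT replicate 2 and 2.81 without cKO replicate 1. For H3K36me3 it was 5.43 points over 7 genes and -4.99 over all genes, with 3.37 over the 7 genes without cKO replicate 2. The differences of the genes ran from -10.8 to 32.8 points for H3K27ac and from -67.0 to 32.7 points for H3K36me3.

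**Figure D4:**
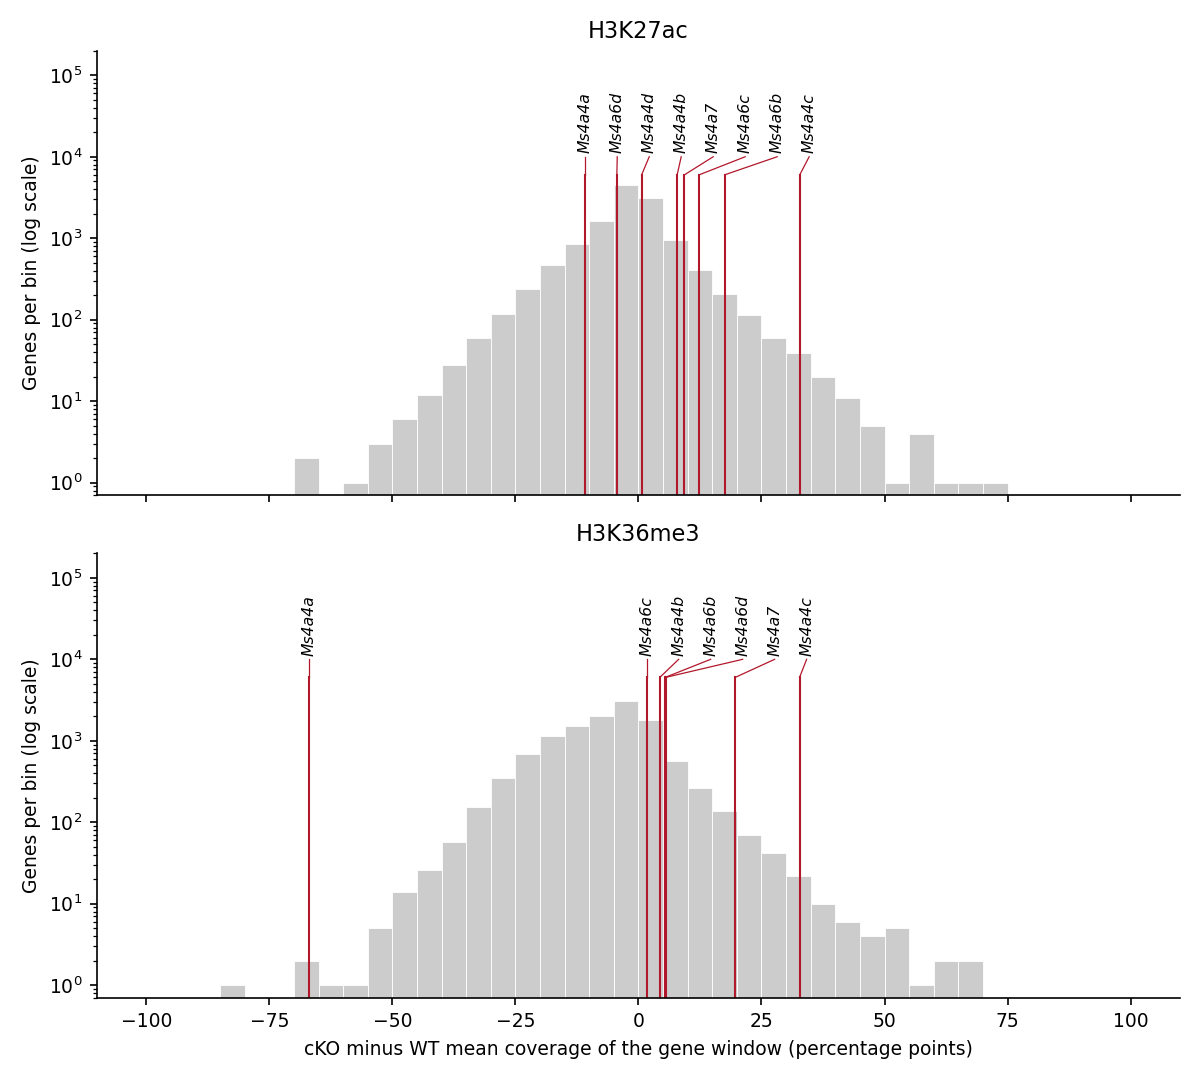
Protein-coding genes per bin of 5 percentage points (log scale) by the difference in mean window coverage, cKO minus WT, with the Ms4a genes as red lines, for 12767 genes with an H3K27ac region and 11975 with an H3K36me3 region. Ms4a4a lies at -67.0 points for H3K36me3, in the left tail, and Ms4a4c at 32.8 and 32.7 points in the right tails.

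Over the whole span, H3K27ac regions covered 41.8 and 32.7 kb in WT and 51.7 and 56.3 kb in cKO. Both cKO values lay above both WT values, with a difference of 16.7 kb between means of 37.3 ± 6.43 kb and 54.0 ± 3.28 kb (SD, n = 2 each; exact permutation p = 0.333, the smallest possible). The same libraries covered less of the genome in cKO, at 46.2 and 62.0 Mb against 89.6 and 74.8 Mb in WT. H3K36me3 regions covered 62.1 and 59.6 kb of the span in WT and 58.3 and 75.9 kb in cKO, and the groups overlapped. The difference of 6.28 kb was -2.53 kb without cKO replicate 2 and 15.1 kb without cKO replicate 1 (exact permutation p = 1 with all libraries).

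The 4 H3K27ac lists merged into 31 regions across the span. All 4 libraries called 11 of them, 2 were gained, 5 were lost and 13 were mixed. The gained regions lay outside the windows, at chr19:11343170-11343795 before Ms4a7 and chr19:11482459-11483137 behind Ms4a6c. H3K36me3 merged into 25 regions, with 6 in all libraries, 2 gained, 0 lost and 17 mixed. The second gained H3K36me3 region (chr19:11492056-11493395) lay in Gm8369, a gene between Ms4a6c and Ms4a6b.

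H3.3-HA regions lay in the window of 8 of 8 genes in both replicates, against 44.2% of all protein-coding genes. The median of the mean coverage was 21.03% over the 8 genes and 1.21% over all 21938 protein-coding genes, with or without a region. Ordered by the mean, Ms4a7 had 40.8% ± 7.94, Ms4a6c 38.2% ± 6.78, Ms4a6b 37.4% ± 3.94, Ms4a6d 24.3% ± 7.34, Ms4a4a 17.8% ± 12.97, Ms4a4b 15.6% ± 0.804, Ms4a4d 12.8% ± 2.01 and Ms4a4c 8.67% ± 3.62 (SD, n = 2 each). The replicate values of Ms4a7, Ms4a6c and Ms4a6b overlapped one another, and both values of each lay above both values of the other 5 genes. For Ms4a6c this held for the window only, which takes in the region at the end of Ms4a4b (chr19:11464228-11467062). Over the gene body Ms4a6c had 29.9% and 13.1%. Those values overlapped Ms4a6d at 29.0% and 19.9% and Ms4a4b at 18.3% and 19.6%. The replicates shared 27 regions in the span, of which 20 lay in a gene window. Of the 27, 16 were overlapped by H3K27ac in both WT libraries and 17 in both cKO libraries, and 8 by H3K36me3 in both libraries of either genotype. Of the 5 lost H3K27ac regions of the span, 4 were overlapped by H3.3-HA in both replicates, as were 8 of the 11 in all libraries. Over the genome these shares were 25.5% of 12771 lost regions and 61.2% of 15390.

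The genes whose 10 window coverages lay nearest to those of each Ms4a gene, by Euclidean distance in percentage points, were named for description. Slfn4 was nearest to Ms4a4c at 23.4 points, before BC147527 at 25.5 and Ifit1 at 27.03. Slfn4 had H3K27ac coverage of 0% in both WT libraries and of 31.2% and 24.5% in cKO, and H3K36me3 coverage of 0% in both WT libraries and of 18.9% and 32.0% in cKO. Among the genes nearest to Ms4a4a were Tcp11l2 at 30.3 points and Scd2 at 32.4. Tcp11l2 had H3K36me3 coverage of 64.2% and 63.7% in WT and 2.64% and 11.4% in cKO. Its H3K27ac coverage overlapped between genotypes, at 2.36% and 14.4% in WT and 8.15% and 9.63% in cKO, where Ms4a4a had 0% in cKO. Scd2, like Ms4a4a, was lower in cKO for both marks without overlap. Its H3K27ac coverage was 14.0% and 8.99% in WT and 0% and 5.51% in cKO. Its H3K36me3 coverage was 56.9% and 59.9% in WT and 3.80% and 16.8% in cKO. Ms4a6c was the nearest gene to Ms4a7, at 26.2 points, with Rab14 and Milr1 behind it. Dck, B430306N03Rik and Ms4a7 were nearest to Ms4a6c, Cnbp, Ensa and Mettl23 to Ms4a6b, Polr2g, Plek and Rpl6 to Ms4a6d, Tspan32, Susd1 and S100b to Ms4a4b, and Exoc3l4, Ankrd34a and AC134908.4 to Ms4a4d.

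Of 14 other genes of the family, 7 had a region in at least 2 libraries and 4 had none in any. Ms4a14, which neighbours Ms4a7, had H3K36me3 over 73.5% and 72.1% of its window in WT and 79.9% and 87.5% in cKO, without overlap. Tmem176a and Tmem176b, a pair of family members on chromosome 6, lost their H3K36me3 regions in cKO. These genes overlap (chr6:48840919-48847071 and chr6:48833818-48841496), so their windows share sequence and the same region can count for both. The WT values were 10.6% and 29.4% for Tmem176a and 25.9% and 42.4% for Tmem176b, and the cKO values were 0% for both. For H3K27ac, 0 of the 14 were higher, 1 was lower (Ms4a20, annotated as 1700017D01Rik, with 6.34% and 3.38% in WT and 1.28% and 3.23% in cKO), 5 overlapped and 8 had no region. Ms4a1 carried H3K27ac at 21.2% and 19.7% in WT and 14.6% and 25.8% in cKO, Ms4a3 in 1 cKO library at 18.97%, and Ms4a2 no region in any library. The seventh gene, Ms4a19 (1700025F22Rik), had H3K36me3 at 1.63% in both WT libraries and 0% and 2.06% in cKO. For H3K36me3, 1 was higher, 2 were lower (Tmem176a and Tmem176b, which share window sequence), 2 overlapped and 9 had no region. Of 5 further protein-coding genes within 100 kb, Gm8369 was higher in cKO for both marks, with H3K27ac at 6.92% and 5.40% in WT and 13.4% and 18.1% in cKO and H3K36me3 at 13.01% and 7.65% in WT and 15.9% and 28.5% in cKO. The Gm8369 window takes in the end of the H3K36me3 region over Ms4a6c (merged chr19:11470673-11486636), so part of these H3K36me3 values is that region. In WT replicate 1, only a region of 642 bp lay in the Gm8369 body. Ms4a12 was lower for H3K27ac at 8.31% and 13.3% in WT and 5.05% and 5.48% in cKO. The other 3, Oosp1, Oosp2 and Oosp3, had no H3K36me3 region, and their H3K27ac values overlapped or were 0%.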

How the data were processed

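CUT & RUN libraries of BMDMs were sequenced as paired-end reads of 25 bases. The authors trimmed with cutadapt, used local alignment by Bowtie2 to mm10 and ran HOMER's histone mode on each library against IgG, at peak size 500 bp, minimum distance 1000 bp, 4-fold over the control and Poisson p of 1e-03 (1e-04 over the control), per the file headers. The deposited lists hold the start and end of each region. Their score is constant, so neither signal nor read counts could be compared, and a region missed in a library can differ little in signal.

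Coordinates were made 1-based. Coverage of gene windows (GENCODE M21, chromosomes 1 to 19, X and Y) was computed in Python 3.11.15 with numpy 2.4.6 and checked on simulated lists, and figures were drawn with matplotlib 3.10.9. Libraries of a mark were merged, with at least 1 bp of overlap counting as called. Groups and replicate numbers came from the labels. Values were compared by two-sided exact permutation of libraries. Named genes were the 8 members, family genes with regions in at least 2 libraries, protein-coding neighbours within 100 kb and the 3 most alike genes of each member with regions in at least 5 libraries, of which 1 is not reported here. The members, lists and tests were chosen with earlier results of these data known. Promoters came from RefSeq GRCm38.p6. The alternatives were a minimum width of 1 kb, joining across 1 kb, lists of equal length, other gene windows, 50% overlap, a replicate block and leaving out each library.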

Additional observations from a re-analysis of the deposited data

How the results depend on the processing

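The H3K36me3 difference at Ms4a4a and the differences of both marks at Ms4a4c kept their direction under every alternative run, but with 20 kb on both sides they shrank to -26.4 points at Ms4a4a, and to 4.86 points (H3K36me3) and 14.1 points (H3K27ac) at Ms4a4c. The count of genes higher in cKO for H3K27ac was 5 in place of 3 with regions of at least 1 kb, with lists of equal length, with 20 kb on both sides and with the replicate block, and 3 to 5 with a library left out. The count of lower genes was 1 in place of 2 with regions of at least 1 kb, with the gene body alone and with 20 kb on both sides, and 2 to 3 with a library left out. The count with a gained H3K27ac region was 1 in place of 0 with regions of at least 1 kb, equal lists or 50% overlap, 3 with 20 kb on both sides, and 0 to 3 with a library left out. The count with a lost one was 1 in place of 2 with regions of at least 1 kb or equal lists, and 2 to 3 with a library left out. For H3K36me3, the higher count was 4 in place of 5 with regions of at least 1 kb or with regions joined. With a library left out it was 5 to 6. The lower count was 1 to 2 with a library left out. The gained count was 0 in place of 1 with regions joined, 2 with 20 kb on both sides and 1 to 3 with a library left out. The lost count was 1 in place of 0 with regions of at least 1 kb or 50% overlap, and 0 to 1 with a library left out. The median difference was 2.81 to 12.8 points for H3K27ac and 3.37 to 6.92 points for H3K36me3, and the H3K36me3 difference over the span was -2.53 to 15.1 kb, with a library left out. Among single genes, Ms4a4a H3K27ac turned to 7.99 points with 20 kb on both sides, a window that reaches Ms4a4c, and Ms4a6d H3K36me3 to -0.11 points with regions joined. The causes of the other moves were not tested.

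The replicate numbers were not shown to pair the libraries. The differences of replicate 1 minus replicate 2 correlated between WT and cKO over genes with r = -0.101 for H3K27ac and 0.104 for H3K36me3. With the replicate block the difference over the span was 16.7 kb for H3K27ac (exact sign-flip permutation p = 0.5, the smallest possible) and 6.28 kb for H3K36me3, and the H3K27ac count of 5 was the count it moved by over 1.5 times. Depth differed between libraries by up to the ranges given, and for H3K36me3 both cKO libraries were deeper than both WT libraries. Without counts, the effect of depth on which regions passed the threshold could not be measured.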

Other observations

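Neighbours with opposite differences were counted after the values of Ms4a4a and Ms4a4c had been seen. Of 19434 pairs of adjacent protein-coding genes, 45 had gene body H3K36me3 coverage that was higher in cKO by at least 20 points at one gene and lower by at least 20 points at the other, without overlap of the genotypes at either. Ms4a4a and Ms4a4c were one of them, at -86.4 and 40.0 points with 11979 bp between the genes. By the smaller of the absolute differences they were behind Ypel3 and Tbx6 (53.5 and -64.0 points) and Akr1e1 and Klf6 (-40.3 and 79.5 points). Ms4a7 and Ms4a4a were another of the 45, at 26.2 and -86.4 points with 39376 bp between them. Clec4d and Clec4e, a pair of C-type lectin receptor genes of myeloid cells on chromosome 6, were also among them, at 30.2 and -36.5 points.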
